A study of Mus musculus with 30 samples.

Results

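Pseudogenes, long noncoding RNAs and small RNA genes whose read counts kept WT and 3xTg-AD mice fully apart were described in the insular cortex, the cortical area that holds taste memory. A gene was taken when it was not protein-coding in GENCODE vM21, held at least 100 reads over the 30 mice, and had in the 15 mice of one genotype a lowest CPM (the reads of a gene as a share of its library's reads, on a fixed total and scaled by the TMM method over all genes) above the highest CPM of the 15 mice of the other. Malat1, Neat1, Miat, Snhg11, Meg3, Rian, Mirg, Pantr1, Peg13 and Kcnq1ot1 were left out by the same rule. Of 7927 noncoding genes with enough reads, 98 met it, 53 of them higher and 45 lower in 3xTg-AD mice. The genotype difference chose these genes, so their levels are given as a description without a test.

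PolyA-selected RNA was sequenced from 3 WT and 3 3xTg-AD male mice at each of 5 ages from 2 to 14 months, 1 library per mouse. Every mouse had first been through conditioned taste aversion, in which a saccharin solution is paired with an injection of lithium chloride. Tissue was taken after the memory test. The 3xTg-AD mice were homozygous and carry, among their alleles, human APP and MAPT transgenes driven by the neuronal Thy1 promoter. The study calls its controls littermates and its methods say that both genotypes came from crosses, without naming a strain background. Effects of the transgenes and of other genetic differences between the genotypes cannot be told apart. The tissue methods describe both hemispheres pooled per mouse, whereas the expression methods describe 1 hemisphere.

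Processed pseudogenes are copies of spliced messenger RNAs that were pasted back into the genome, where most lack a promoter of their own. Because they keep nearly the whole parent sequence, a short read cannot always be assigned with certainty to the parent or to one copy. Long noncoding RNAs are transcribed from their own promoters, often beside or antisense to a coding gene, and small nucleolar and micro RNAs are usually cut from the introns or exons of host transcripts.

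The libraries held between 19028829 and 41551040 reads on 43629 genes. Of the gene identifiers, 1081 had no vM21 type, and the 6 of these that separated the genotypes are not counted among the 98. The median log2 difference between genotypes over all genes with at least 100 reads was -0.00 after TMM scaling, 0.00 with size factors and 0.01 without scaling. None of the 9 left-out genes found in the table separated the genotypes. Neither did any of the 29 counted genes in a list of 39 well described long noncoding RNAs, which includes the left-out genes. Of the other noncoding genes with enough reads, 1.24% did. Of the cell type markers checked, cortical excitatory neuron genes summed to 1232 to 1561 CPM in WT and 1100 to 1485 CPM in 3xTg-AD mice. The 12 striatal markers summed to 229 to 948 CPM in WT (median 366) and 196 to 1928 CPM in 3xTg-AD mice (median 745), none of them passing the test. Called higher in 3xTg-AD mice were 4 of 5 blood markers (sum median 188 CPM in WT and 424 CPM in 3xTg-AD), 2 of 6 microglial markers, 1 of 6 markers of plaque-associated microglia, 1 of 5 astrocyte markers and 1 of 6 interneuron markers, and none of these was called lower. With a striatal marker score as a covariate, 49 of the coding partners of the 98 genes were called, against 50 without it. This count covers the partners alone. The part of the striatal or other markers in the differences of the 98 genes was not tested. In bulk tissue, fewer cells of a type and less RNA per cell cannot be told apart.

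The 98 genes were 1.24% of the noncoding genes with at least 100 reads (0.669% higher, 0.568% lower in 3xTg-AD), beside 1.40% of the protein-coding ones (234 of 16660, with 0.768% higher and 0.636% lower). By class, they were 42 long noncoding RNAs of 3367, 31 processed pseudogenes of 1364, 13 other pseudogenes of 311, 6 small RNA genes of 2207, 5 genes of the type TEC (transcripts to be experimentally verified) of 659, and Ighg2c, an immunoglobulin constant region gene. Transcribed unprocessed pseudogenes gave 6 of 65. Of the processed pseudogenes, 3xTg-AD mice had 23 at a higher and 8 at a lower level, with median folds of 29.2 and 32.4. The 19 higher and 23 lower long noncoding RNAs had median folds of 3.23 and 3.13. A fold over 10 was reached by 26 of the higher and 10 of the lower genes, and a fold under 2 by 5 and 13.

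**Figure D1:**
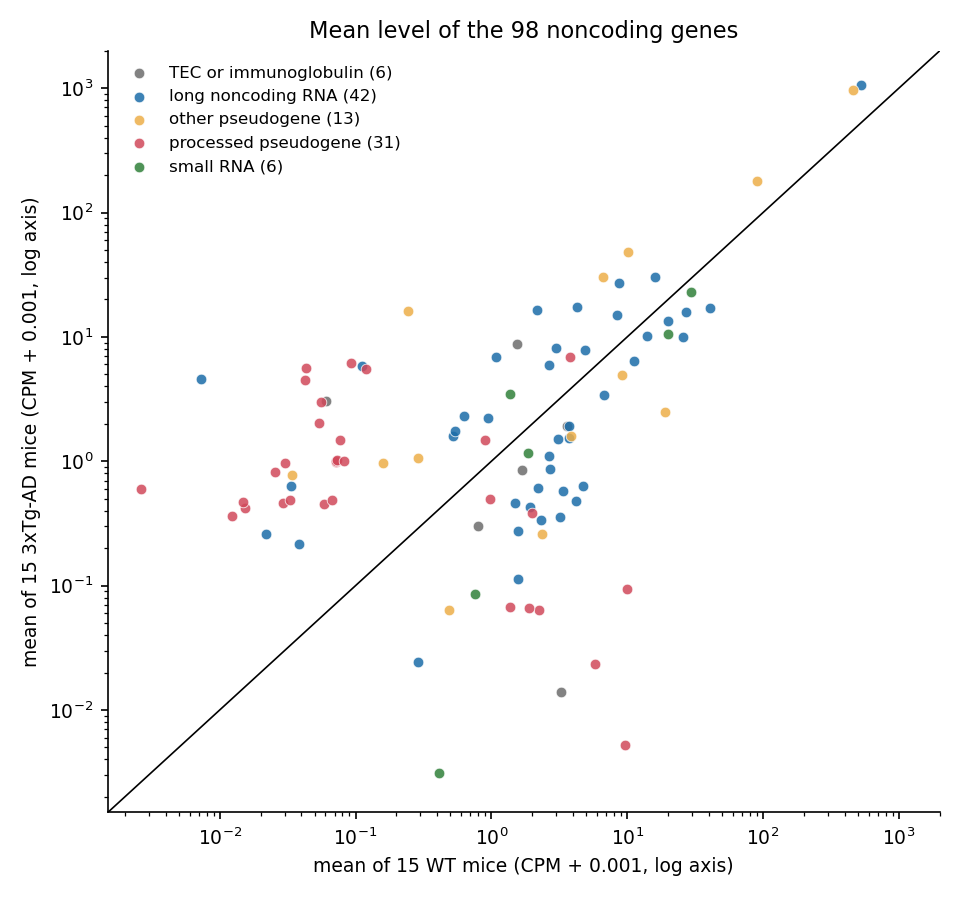
Mean CPM of each of the 98 genes in the 15 WT mice (horizontal axis) and the 15 3xTg-AD mice (vertical axis), both with a small constant added and on a log scale, with colours by class. Processed pseudogenes lie on both sides of the diagonal with median folds of 29.2 and 32.4, except that Pdcd5-ps, 3000002C10Rik and Bambi-ps1 lie close to it with folds of 1.68, 1.82 and 1.95. Gm26848 and Tmem181b-ps stand at the highest CPM, about 2.02 and 2.09 times higher in 3xTg-AD mice.

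The thresholds of the rule passed close to some genes. Just inside, the lowest CPM of the higher genotype was barely above the highest of the other for Gm15328 (5.94 in WT, 5.95 in 3xTg-AD), for Snord32a and for 3000002C10Rik. Just outside, 4930525G20Rik, D330050G23Rik and 6720483E21Rik had a ratio of 0.999, 0.993 and 0.986. The fewest reads were held by Gm16029 (116), Gm12243 (127) and Banf2os (147). Below 100 reads, Gm13443 (98), Hist1h2al (89), Pcna-ps2 (74), Mir1969 (50) and Gm6100 (48) also separated the genotypes.

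Among the processed pseudogenes, the largest group was formed by copies of ribosomal protein genes. Of 72 pseudogenes of Rps2, a protein of the small ribosomal subunit, 33 held at least 100 reads and 9 separated the genotypes, all of them higher in 3xTg-AD mice. They lie on 9 different chromosomes and are 95.8% to 99.5% identical to the Rps2 transcript, with read sums 7.54 to 36.0 times higher in 3xTg-AD mice. Rps2-ps13 had 0 to 0.188 CPM in WT (median 0.0689) and 0.515 to 1.65 CPM in 3xTg-AD mice (median 1.03). Gm6139 had 0 to 0.167 CPM in WT (median 0.0681) and 0.543 to 1.44 CPM in 3xTg-AD mice (median 1). Rps2-ps6 had 0 to 0.0751 CPM in WT (median 0.0282) and 0.488 to 1.44 CPM in 3xTg-AD mice (median 0.954). The WT mice were thus at a few reads or none in each copy.

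The stretches below show how little separates these copies from their parent. They are 120 bases of the sense strand, 350 to 469 of the Rps2 transcript in GENCODE vM21 on GRCm38, counted from 1 at its 5′ end, and capitals in a pseudogene mark bases that differ from Rps2. In the Rps2 line, capitals mark bases at which at least 1 of the 8 separating copies aligned here differs. Rps2-ps13 lies at chrX:52898588-52899469 (+), Gm6139 at chr5:129622990-129623871 (-), Gm6311 at chr13:75954136-75955013 (+) and Rps2-ps6 at chr14:76236691-76237545 (-).
Rps2: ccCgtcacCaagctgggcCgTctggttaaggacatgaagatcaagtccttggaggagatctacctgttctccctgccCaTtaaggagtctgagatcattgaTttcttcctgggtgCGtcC
Rps2-ps13: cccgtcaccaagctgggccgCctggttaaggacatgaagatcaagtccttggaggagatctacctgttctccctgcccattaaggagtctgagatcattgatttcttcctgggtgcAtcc
Gm6139: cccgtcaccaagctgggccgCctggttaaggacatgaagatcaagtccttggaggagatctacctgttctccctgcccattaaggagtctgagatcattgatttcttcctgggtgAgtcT
Gm6311: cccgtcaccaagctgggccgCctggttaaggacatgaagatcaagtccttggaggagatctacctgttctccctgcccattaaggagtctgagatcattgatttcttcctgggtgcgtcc
Rps2-ps6: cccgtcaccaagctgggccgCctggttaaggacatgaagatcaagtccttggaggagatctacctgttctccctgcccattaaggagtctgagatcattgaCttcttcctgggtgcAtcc
T370C, with the base of Rps2 first, was carried by 7 of the 8 copies over this stretch. Over the whole transcript, T226A and T922C were carried by all 9 separating copies, and also by 34 of 36 and 51 of 56 other Rps2 pseudogenes that could be aligned there.

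The copies did not give independent values. Gm6139 and Gm6311, on chromosomes 5 and 13, held exactly the same number of reads in 21 of 30 mice and differed by at most 2 reads in 29. Rps2-ps10 on chromosome 18 and Gm6311 held equal numbers in 15 mice and differed by at most 2 reads in 29. How reads that align to several places were counted is not given in the sources used here, so the values of such copies are uncertain and may rest on the same reads. Over all 98 genes, 30 matched another of them over at least 30% of the shorter transcript at 80% identity or more, in 60 pairs. Both genes of a pair were higher or both lower in 56 of these pairs.

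The 24 Rps2 pseudogenes that held at least 100 reads without separating the genotypes had read ratios (3xTg-AD over WT) from 0.769 to 30.4 with a median of 1.04, and 4 of them exceeded 2. The highest of these, Rps2-ps5 at 30.4, lay within the range of the separating copies, and the split is by the difference itself. The parent gene itself had 207 ± 36.1 CPM in WT and 230.2 ± 29.3 CPM in 3xTg-AD mice (SD, n = 15), a log2 difference of 0.15 ± 0.07 (SE) that did not pass the test (edgeR quasi-likelihood, adjusted p = 0.258).

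Rplp0, which encodes the stalk protein of the large ribosomal subunit, had 4 separating copies among 6 pseudogenes, all higher in 3xTg-AD mice. Gm8730 (chr8:102864845-102865798, -) had 0 to 0.0999 CPM in WT (median 0.0526) and 3.96 to 7.87 CPM in 3xTg-AD mice (median 5.34), 19 reads in all against 2473. Gm9625 (chr13:67810246-67811200, +), Gm14165 (chr2:152353615-152354566, +) and Rplp0-ps1 (chr3:93278141-93279073, +) were lower in level and held 26, 13 and 5 reads in WT against 1327, 208 and 161 in 3xTg-AD mice. The only other copy with at least 100 reads, Gm15355, had a ratio of 0.809. The stretch shown is 724 to 843 of the Rplp0 transcript, where all 4 copies carry A817G, Gm8730, Gm9625 and Rplp0-ps1 carry T724G, and Gm9625, Gm14165 and Rplp0-ps1 carry T766C.
Rplp0: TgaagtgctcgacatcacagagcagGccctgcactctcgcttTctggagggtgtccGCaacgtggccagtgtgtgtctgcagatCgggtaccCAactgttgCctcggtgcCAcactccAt
Gm8730: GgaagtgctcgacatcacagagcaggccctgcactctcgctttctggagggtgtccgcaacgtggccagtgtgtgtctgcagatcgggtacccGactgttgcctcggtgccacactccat
Gm9625: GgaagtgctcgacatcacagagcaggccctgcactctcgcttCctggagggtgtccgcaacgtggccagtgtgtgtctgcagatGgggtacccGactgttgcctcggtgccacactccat
Gm14165: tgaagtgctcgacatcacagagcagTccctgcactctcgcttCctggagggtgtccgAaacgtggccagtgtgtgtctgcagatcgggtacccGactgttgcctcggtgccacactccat
Rplp0-ps1: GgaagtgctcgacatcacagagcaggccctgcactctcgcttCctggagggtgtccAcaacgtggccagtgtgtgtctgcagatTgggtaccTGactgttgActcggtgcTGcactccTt
Rplp0 had a log2 difference of -0.06 ± 0.05 (SE), which did not pass the test (edgeR quasi-likelihood, adjusted p = 0.615).

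Rpl3, another protein of the large subunit, had 3 separating copies among 24 pseudogenes. Rpl3-ps1 on chromosome X had 0 to 0.263 CPM in WT (median 0.120) and 4.12 to 6.92 CPM in 3xTg-AD mice (median 5.66). Rpl3-ps2, also on chromosome X, had 0 to 0.114 CPM in WT (median 0.0333) and 3.56 to 5.58 CPM in 3xTg-AD mice (median 4.52). Gm12816 on chromosome 4 was also higher, at 0.0764 ± 0.0608 CPM in WT and 1.48 ± 0.281 CPM in 3xTg-AD mice (SD, n = 15). Rpl3 itself fell in 3xTg-AD mice, with a log2 difference of -0.26 ± 0.04 (SE, edgeR quasi-likelihood, adjusted p = 7.71e-05), in the direction opposite to its 3 copies. The 4 other Rpl3 pseudogenes with at least 100 reads had ratios between 1.05 and 1.42.

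Atp6v0c-ps2 (chr6:37806086-37806550, +) differs from its parent at a single base. Atp6v0c encodes the proton pore subunit of the vacuolar ATPase, and T288C was the only mismatch over the 465 bases of the pseudogene. The copy had 0.0286 to 0.198 CPM in WT (median 0.0855) and 3.93 to 8.65 CPM in 3xTg-AD mice (median 6.4), 44 reads against 2756. Bases 228 to 347 of the Atp6v0c transcript show the difference in capitals.
Atp6v0c: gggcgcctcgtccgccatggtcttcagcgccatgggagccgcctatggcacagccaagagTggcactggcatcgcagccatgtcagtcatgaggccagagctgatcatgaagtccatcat
Atp6v0c-ps2: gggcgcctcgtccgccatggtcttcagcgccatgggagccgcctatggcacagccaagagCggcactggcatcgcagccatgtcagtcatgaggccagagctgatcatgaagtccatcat
Atp6v0c had 513 ± 74.5 CPM in WT and 503 ± 54.7 CPM in 3xTg-AD mice (SD, n = 15), and its log2 difference of -0.02 ± 0.06 (SE) did not pass the test (edgeR quasi-likelihood, adjusted p = 0.912).

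The remaining higher copies were each the only separating copy of their parent. Gm9825, a copy of the splicing factor gene Rnps1, had 0 to 0.200 CPM in WT (median 0.0375) and 1.38 to 2.85 CPM in 3xTg-AD mice (median 1.96), while Rnps1 fell by 0.48 on the log2 scale (edgeR quasi-likelihood, adjusted p = 2.54e-11). Gm5815, a copy of Glcci1, held 1 read in WT and 265 reads in 3xTg-AD mice, a ratio of 280 with a 95% counting interval of 49.9 to 11110. Gm3555, a copy of the kinase gene Stk38l, held 6 reads in WT and 187 reads in 3xTg-AD mice (means of 0.0143 and 0.418 CPM). It lies inside Slco6d1, which rose from 0.0595 ± 0.0389 to 0.464 ± 0.126 CPM (SD, n = 15, edgeR quasi-likelihood, adjusted p = 2.39e-10). Whether Gm3555 and Slco6d1 counted the same reads was not tested. Wsb2-ps, a copy of Wsb2, had 0.0286 to 0.172 CPM in WT (median 0.0427) and 0.253 to 0.694 CPM in 3xTg-AD mice (median 0.419). Pdcd5-ps is a full copy of Pdcd5 without a mismatch over 381 bases and had a smaller fold of 1.68, from 0.890 ± 0.111 CPM in WT to 1.49 ± 0.370 CPM in 3xTg-AD mice (SD, n = 15). It lies inside Kcnk2, a potassium channel gene that rose (log2 difference 0.66 ± 0.06, SE, edgeR quasi-likelihood, adjusted p = 3.49e-09), whereas Pdcd5 did not pass the test at 0.00 (adjusted p = 0.994).

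Among the 8 processed pseudogenes that were lower in 3xTg-AD mice, Gm6969 and Rps13-ps1 had the widest gaps. Gm6969 (chromosome 12, 24638669 to 24639010), a copy of Cox7a2l, which is needed to assemble supercomplexes of the respiratory chain, had 7.74 to 11.6 CPM in WT mice (median 9.92). In 3xTg-AD mice 13 of 15 held no read of it and the other 2 held 1 each, so that 4498 reads stood against 2, a ratio of 2127 with a 95% counting interval of 588 to 17567. Rps13-ps1 (chromosome 8, 87047689 to 87048226) had 4.62 to 7.79 CPM in WT (median 5.74) and 0 to 0.100 CPM in 3xTg-AD mice (median 0), 2713 reads against 9. Cox7a2l did not pass the test (0.05, adjusted p = 0.394), and Rps13 rose by 0.21 ± 0.04 on the log2 scale (SE, edgeR quasi-likelihood, adjusted p = 0.000952), opposite to its copy.

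Rps3a1, a protein of the small ribosomal subunit, had 2 separating copies among 6 pseudogenes, both lower in 3xTg-AD mice. Rps3a3 (chr13:108670603-108671397, +) had 7.10 to 12.2 CPM in WT (median 10) and 0.0329 to 0.203 CPM in 3xTg-AD mice (median 0.0966), 4667 reads against 40. Rps3a2 (chr14:88123017-88123808, -) had 0.789 to 2.03 CPM in WT (median 1.43) and 0 to 0.215 CPM in 3xTg-AD mice (median 0.0343). Bases 715 to 834 of the Rps3a1 transcript are shown, in which the copies share no change, whereas T349C and T667C are carried by both.
Rps3a1: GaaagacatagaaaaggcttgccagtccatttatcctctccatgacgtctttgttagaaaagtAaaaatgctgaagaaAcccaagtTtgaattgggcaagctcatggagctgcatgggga
Rps3a3: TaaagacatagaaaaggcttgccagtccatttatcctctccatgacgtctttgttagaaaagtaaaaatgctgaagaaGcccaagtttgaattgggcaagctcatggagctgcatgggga
Rps3a2: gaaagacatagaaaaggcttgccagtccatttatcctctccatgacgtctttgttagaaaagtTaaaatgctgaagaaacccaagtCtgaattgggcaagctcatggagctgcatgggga
The parent Rps3a1 had a log2 difference of 0.06 ± 0.03 (SE) and did not pass the test (edgeR quasi-likelihood, adjusted p = 0.272), and the other copy with at least 100 reads, Gm13408, had a ratio of 0.897.

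Gm9855 (chr10:42054113-42055306, -) is a copy of Tdg, a DNA glycosylase that removes mismatched thymine, and differs from it at 9 of 1194 bases. The copy had 1.82 to 2.67 CPM in WT (median 2.22) and 0 to 0.240 CPM in 3xTg-AD mice (median 0.0317), with 7 of the 15 3xTg-AD mice at 0. Of the 9 differences, 5 lie within bases 1154 to 1273 of the Tdg transcript, shown in capitals.
Tdg: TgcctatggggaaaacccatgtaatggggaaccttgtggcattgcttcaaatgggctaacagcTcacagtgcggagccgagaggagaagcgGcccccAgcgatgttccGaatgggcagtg
Gm9855: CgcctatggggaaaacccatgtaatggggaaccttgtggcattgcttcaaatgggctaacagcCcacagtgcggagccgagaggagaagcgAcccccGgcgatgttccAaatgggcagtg
Tdg itself rose from 34.5 ± 3.12 CPM in WT to 52.5 ± 4.43 CPM in 3xTg-AD mice (SD, n = 15), a log2 difference of 0.61 ± 0.05 (SE, edgeR quasi-likelihood, adjusted p = 1.69e-11), and its groups did not overlap either.

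The other lower copies were Gm6166, a copy of the fatty acid carrier gene Fabp5, Gm12312, a copy of Fgfr1op2, and Bambi-ps1, a copy of the TGF-beta pseudoreceptor gene Bambi. Gm6166 had 1.17 to 2.81 CPM in WT (median 2.01) and 0 to 0.301 CPM in 3xTg-AD mice (median 0.0543). Gm12312 had 1.99 ± 0.407 CPM in WT and 0.380 ± 0.145 CPM in 3xTg-AD mice, and Bambi-ps1 0.971 ± 0.198 and 0.499 ± 0.130 CPM (SD, n = 15). Fabp5 fell by 0.19 and Fgfr1op2 by 0.23 on the log2 scale (edgeR quasi-likelihood, adjusted p = 0.00290 and 0.0109), and Bambi did not pass the test (-0.01, adjusted p = 0.988).

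A coding gene that matched at 80% identity or more over at least 50% of the transcript was found for 30 of the 31 processed pseudogenes, 16 genes in all. Of these parents, 6 (37.5%) were called between genotypes over all ages, beside 8.81% of 18744 protein-coding genes (edgeR quasi-likelihood, adjusted p below 0.05). Rpl3, Rnps1, Fabp5 and Fgfr1op2 fell and Tdg and Rps13 rose. Of the 8 pairs of a copy and a called parent, 6 went in opposite directions and 2 in the same. Rpl3 alone gave 3 of the 6 opposite pairs, with copies that match each other, and the others came from Rnps1, Tdg and Rps13. Parents and copies can share reads, so these are not separate measurements.

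**Figure D2:**
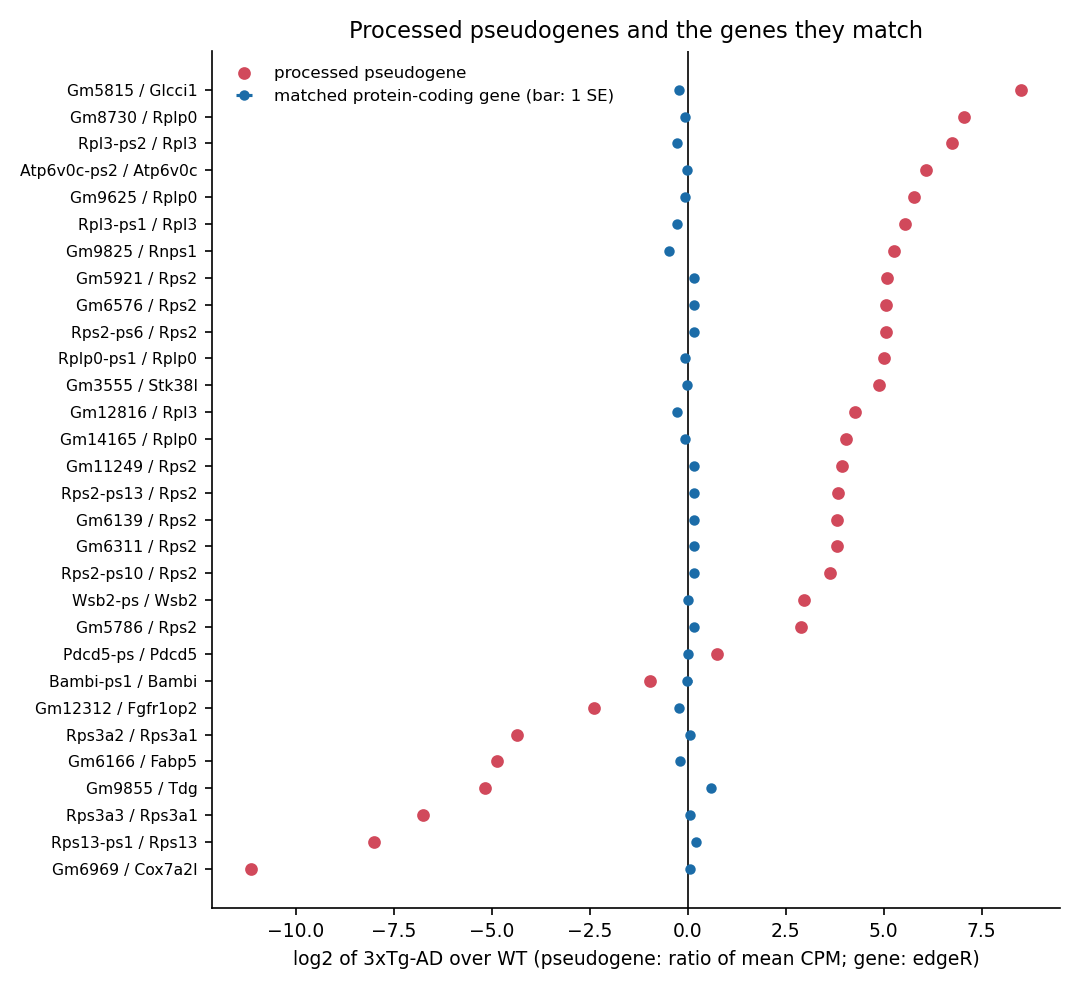
Log2 of 3xTg-AD over WT (horizontal axis) for each processed pseudogene (red, ratio of mean CPM) and the coding gene it matches (blue, edgeR, bars 1 SE), 1 line per pair. The parents lie between -0.48 for Rnps1 and 0.61 for Tdg, and every pseudogene shown lies outside that range, the nearest being Pdcd5-ps at 0.75 and Bambi-ps1 at -0.96.

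The most reads were held by genes at a duplicated locus on chromosome 17. Gm26848 (6314199 to 6493180, + strand) had 458 to 612 CPM in WT (median 528) and 901 to 1174 CPM in 3xTg-AD mice (median 1082). Tmem181b-ps (6438524 to 6467022, - strand) had 412 to 535 CPM in WT (median 469) and 828 to 1089 CPM in 3xTg-AD mice (median 986). Tmem181c-ps (6613753 to 6639790, - strand) had 66.0 to 107 CPM in WT (median 91.7) and 149 to 209 CPM in 3xTg-AD mice (median 187). All 3 were about 2.02, 2.09 and 2.01 times higher in 3xTg-AD mice. Tmem181b-ps lies within Gm26848 on the other strand, and their reads kept a ratio of 1.08 to 1.15 over the 30 mice. The strand setting of the count is not given in the sources used here, so both may have counted the same reads.

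The coding neighbours at this locus rose as well. Tmem181a, the coding gene that Tmem181c-ps matches at 95.9% identity, rose from 162 ± 17.6 to 302 ± 32.4 CPM (SD, n = 15), a log2 difference of 0.89 ± 0.05 (SE, edgeR quasi-likelihood, adjusted p = 4.15e-14). Dynlt1a, Dynlt1b and Dynlt1c, near-identical copies of a light chain of the motor protein dynein, rose by 0.46 ± 0.05, 0.66 ± 0.06 and 0.86 ± 0.08 on the log2 scale (SE, adjusted p = 1.83e-07, 5.64e-10 and 1.42e-09). Near-identical copies make each of these values uncertain.

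On chromosome 12, between 22115756 and 23573981, the 5 genes Gm4425, Gm6838, Gm20472, Gm9286 and Gm20474 were higher in 3xTg-AD mice. They were 5 of the 7 noncoding genes with at least 100 reads there, and no coding gene held as many. Gm20474 had 4.03 to 8.72 CPM in WT (median 7.03) and 20.7 to 37.4 CPM in 3xTg-AD mice (median 30.6). Gm20472 had 0 to 0.430 CPM in WT (median 0.212) and 10.3 to 21.5 CPM in 3xTg-AD mice (median 16.9), 112 reads against 7054. Gm4425 had 0 to 0.228 CPM in WT (median 0.105) and 3.99 to 9.55 CPM in 3xTg-AD mice (median 5.45).

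Nearer the start of the same chromosome, between 20874125 and 20921262, the 3 overlapping genes 3110053B16Rik, Zfp125 and Gm10478 were lower in 3xTg-AD mice. They were all of the noncoding genes with at least 100 reads in this stretch. 3110053B16Rik had 14.9 to 22.1 CPM in WT (median 19.2) and 1.49 to 6.47 CPM in 3xTg-AD mice (median 2.02). Zfp125 had 1.87 to 3.21 CPM in WT (median 2.29) and 0.0657 to 0.753 CPM in 3xTg-AD mice (median 0.222). The 4 pairs of matching genes that went in opposite directions all joined 3110053B16Rik to a gene of the other group, namely Gm20472, Gm20474, Gm6838 or Gm9286. Asap2, the nearest coding gene and the match of Gm20472 and Gm9286, fell by 0.19 on the log2 scale (edgeR quasi-likelihood, adjusted p = 0.0466).

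On chromosome 4, Gm3883 (42456965 to 42461867) had 3.30 to 17.0 CPM in WT (median 10.2) and 23.2 to 62.7 CPM in 3xTg-AD mice (median 46.8). Gm3892 had 3.24 to 12.3 CPM in WT (median 8.96) and 14.0 to 34.8 CPM in 3xTg-AD mice (median 26.2). Both match the coding gene Gm12394 at 98.2% identity, which did not pass the test (0.43 ± 0.16, SE, edgeR quasi-likelihood, adjusted p = 0.104).

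**Figure D3:**
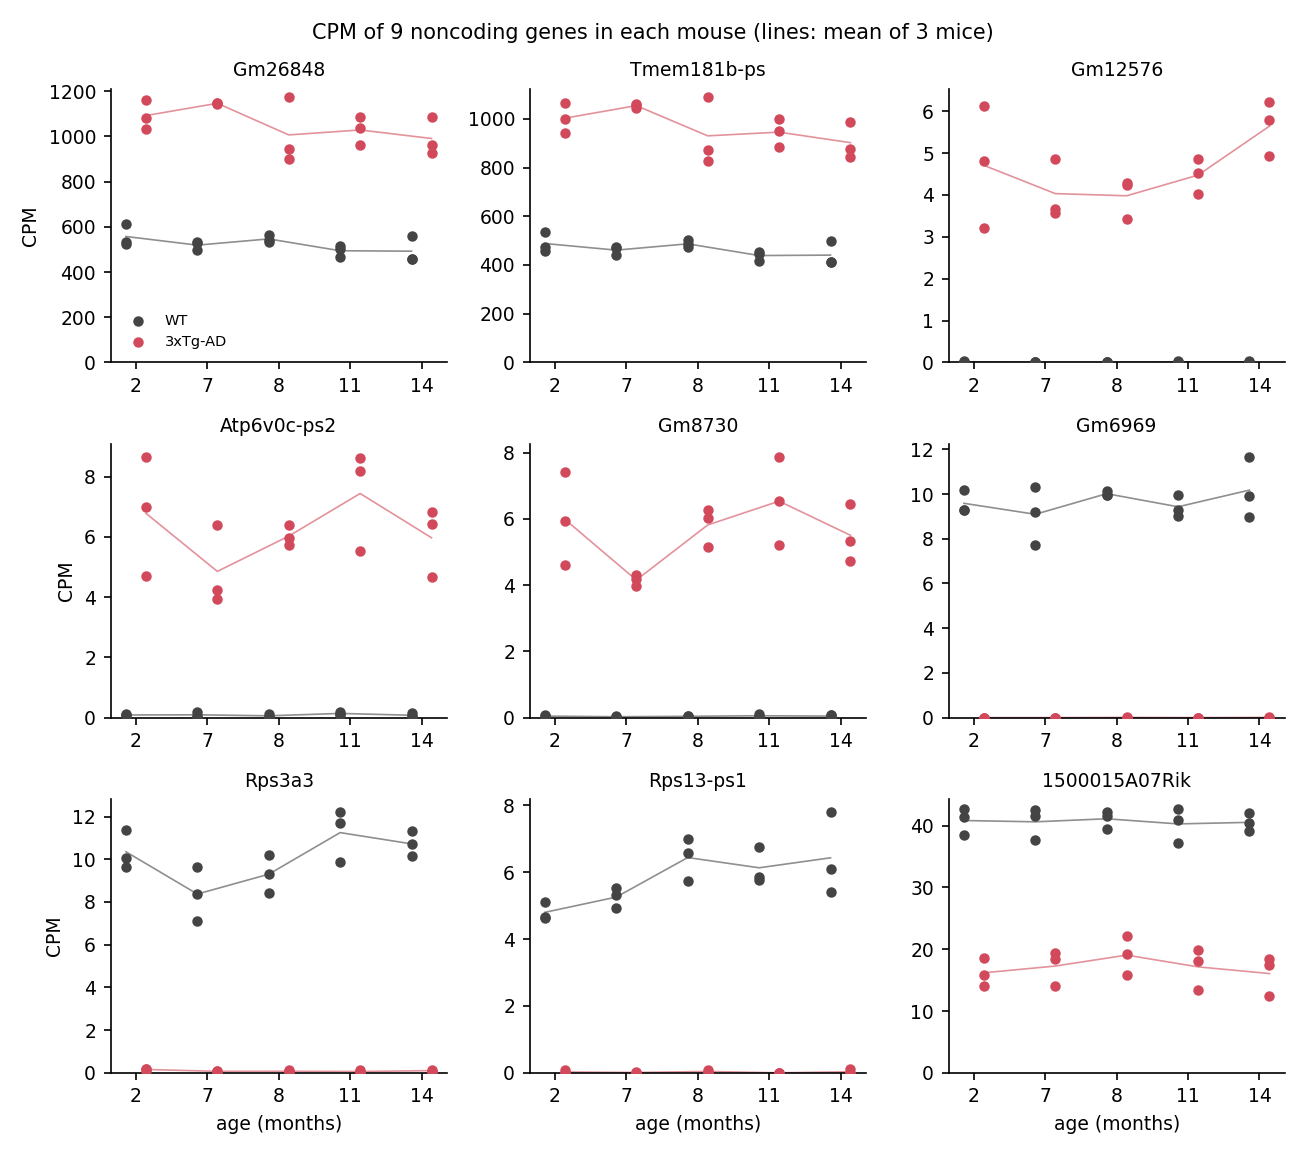
CPM of single mice (vertical axis from 0, points) by age in months (horizontal axis, evenly spaced), in WT (grey) and 3xTg-AD (red) mice for 9 genes with high levels or wide gaps, with lines through the mean of 3 mice. In every panel the 15 mice of one genotype lie above the 15 of the other, as the rule requires, from Gm26848 at 458 to 1174 CPM down to Gm6969, of which 13 of the 15 3xTg-AD mice held no read.

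Of the long noncoding RNAs higher in 3xTg-AD mice, Gm12576 (chromosome 11, 83817682 to 83849493) had the widest gap. It had 0 to 0.0375 CPM in WT (median 0, 3 reads in all) and 3.20 to 6.22 CPM in 3xTg-AD mice (median 4.53, 2021 reads), a ratio of 712 with a 95% counting interval of 243 to 3457. Cep83os had 13.0 to 20.4 CPM in WT (median 15.6) and 22.3 to 37.4 CPM in 3xTg-AD mice (median 30.8), while the centrosome gene Cep83, 78 bases away, did not pass the test (-0.02, adjusted p = 0.927). B230217O12Rik had 3.30 to 5.44 CPM in WT (median 4.07) and 13.7 to 22.5 CPM in 3xTg-AD mice (median 17.0), and Fam160b1, which it overlaps, rose (0.34, adjusted p = 4.77e-07). Etaa1os had 0.0326 ± 0.0302 CPM in WT and 0.631 ± 0.283 CPM in 3xTg-AD mice (SD, n = 15), and its neighbour Etaa1, which acts in the response to stalled replication, rose (0.39, adjusted p = 3.60e-06).

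Gm15726 on chromosome X spread widely within a genotype, from 0.897 to 4.43 CPM in WT (median 1.79) and from 6.28 to 35.4 CPM in 3xTg-AD mice (median 14.3). It shares exon bases with Mid1, a ubiquitin ligase gene, which rose from 18.3 ± 7.11 to 60.3 ± 32.6 CPM (SD, n = 15), a log2 difference of 1.64 ± 0.23 (SE, edgeR quasi-likelihood, adjusted p = 6.11e-06). The wide spread of Gm15726 among 3xTg-AD mice was thus also present in Mid1.

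Of the long noncoding RNAs lower in 3xTg-AD mice, 1500015A07Rik (chromosome 18) held the most reads, with 37.2 to 42.7 CPM in WT (median 41.4) and 12.5 to 22.1 CPM in 3xTg-AD mice (median 18.2). Afap1l1, an actin-associated protein gene that it overlaps, fell by 0.52 on the log2 scale (edgeR quasi-likelihood, adjusted p = 0.00115). Gm9866 had 19.3 to 31.8 CPM in WT (median 24.9) and 7.72 to 13.2 CPM in 3xTg-AD mice (median 10.1), with no coding gene within 100 kb. Gm7854 had 18.3 to 34.1 CPM in WT (median 27.2) and 14.0 to 17.9 CPM in 3xTg-AD mice (median 15.4), and Cpeb2, a regulator of translation that it overlaps, did not pass the test (-0.14, adjusted p = 0.364). Gm26777 was also lower without a call of the gene it overlaps, Galnt16 (-0.14, adjusted p = 0.226). Cdrt4os1 had 1.32 to 3.26 CPM in WT (median 2.48) and 0.129 to 0.652 CPM in 3xTg-AD mice (median 0.316), and Cdrt4 fell by 2.62 on the log2 scale (adjusted p = 2.77e-07). Banf2os had 0.128 to 0.622 CPM in WT (median 0.266) and 0 to 0.109 CPM in 3xTg-AD mice (median 0), while Banf2 did not pass the test (-0.28, adjusted p = 0.741).

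The coding genes whose span overlaps one of the 98 genes were not used to choose them and were tested between genotypes. Of the 38 overlapped genes tested, 27 (71.1%) were called, 13 higher and 14 lower in 3xTg-AD mice, beside the 8.81% of all protein-coding genes (4.52% higher, 4.28% lower). In all 29 pairs with a called gene, of 40 pairs tested, the coding gene moved in the direction of the noncoding one. Pairs that share exon bases can share reads, and 14 of 19 of those were called (73.7%). Pairs on opposite strands that share no exon base were called in 8 of 9 cases, again all in the same direction. Exons here are those of GENCODE vM21, and the annotation release and strand setting of the counts are not given. Pairs without a shared exon base may thus share reads too.

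Some of these changes were large. Skint6, which holds the Rpl3 copy Gm12816, rose from 0.150 ± 0.0675 to 1.55 ± 0.291 CPM (SD, n = 15). Gm12816 itself went from a mean of 0.0764 CPM in WT to 1.48 CPM in 3xTg-AD mice. Whether Skint6 and Gm12816 counted the same reads was not tested. Egflam, which encodes an extracellular matrix protein and is antisense to Gm16029, rose by 1.96 ± 0.09 on the log2 scale (SE, edgeR quasi-likelihood, adjusted p = 3e-16). Pla2g4e, a phospholipase gene that shares exon bases with Gm13997, fell from 78.1 ± 13.1 to 24.8 ± 5.76 CPM (log2 difference -1.67 ± 0.10, adjusted p = 1.79e-14). Pou6f1, a transcription factor gene opposite Gm27209, fell by 0.75 and Slco1a6, a transporter gene opposite Gm20400, by 2.43 on the log2 scale (adjusted p = 7.89e-09 and 2.44e-14).

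Where no coding gene overlapped, the nearest one within 100 kb was tested, here without genes that overlap or match any of the set. Of 42 such neighbours, 14 (33.3%) were called, beside 8.81% of all protein-coding genes. The noncoding gene beside them could itself match a coding gene elsewhere. Of the 14 called pairs, 10 went in the same direction and 4 in opposite directions. Nme6, a member of the nucleoside diphosphate kinase family, rose by 1.02 ± 0.08 on the log2 scale beside 3000002C10Rik (SE, edgeR quasi-likelihood, adjusted p = 7.64e-11), and the mitochondrial ribosomal gene Mrpl55 rose by 0.61 ± 0.05 beside 2610507I01Rik (adjusted p = 1.34e-10). Ifnar1, a subunit of the interferon receptor 15110 bases from A930006K02Rik, fell by 0.25 while the noncoding gene was higher (adjusted p = 6.21e-07).

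At single ages, all coding genes tied to the set by overlap, match or nearness were also compared with edgeR's exact test. Of those tested, 39 of 102 were called at 2 months, 48 of 103 at 7, 25 of 102 at 8, 25 of 103 at 11 and 27 of 103 at 14 months, beside 6.36%, 5.44%, 2.19%, 2.01% and 1.72% of all genes. Over all ages, the quasi-likelihood test called 50 of 105 (47.6%), beside 8.81% of all protein-coding genes.

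**Figure D4:**
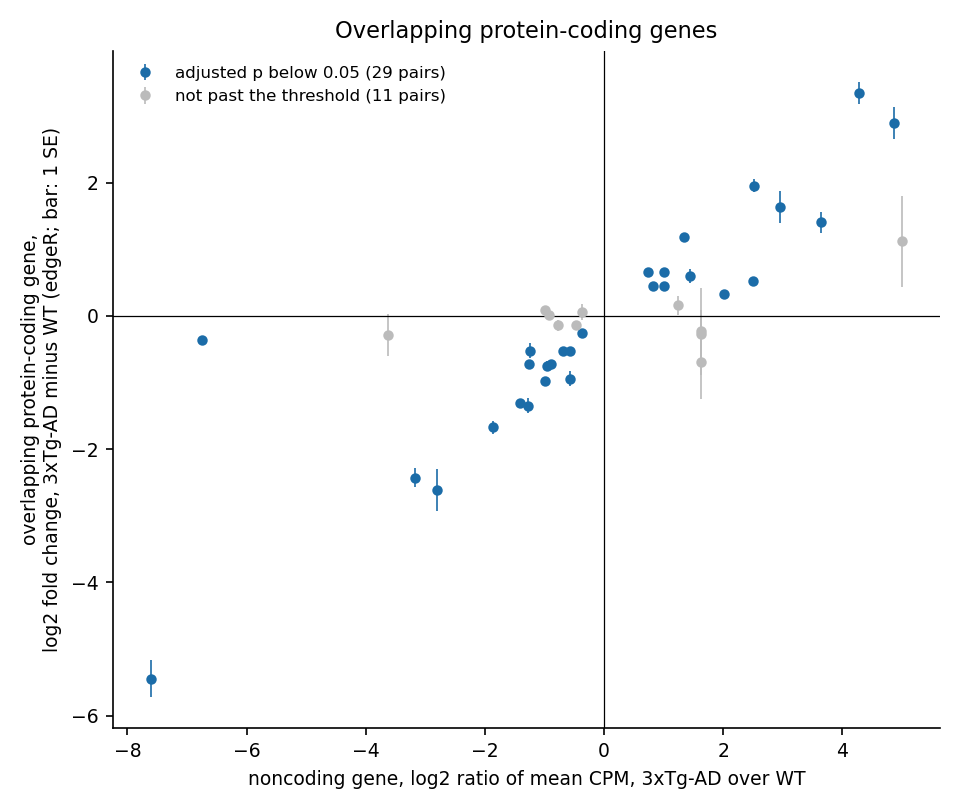
Log2 difference between 3xTg-AD and WT mice of each noncoding gene (horizontal axis) and of the coding gene it overlaps (vertical axis, with SE), with blue points for coding genes called by the test and grey points for the others. All 29 called pairs lie in the quadrants of equal direction.

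Of the small RNA genes, 5 were lower and 1 was higher in 3xTg-AD mice. A count at such a gene can come from its host transcript, and the mature small RNAs were not measured. Mir5125, within Srrm2, had 15.6 to 27.3 CPM in WT (median 19.6) and 7.28 to 13.5 CPM in 3xTg-AD mice (median 10.6). Its mature sequence is given in the RefSeq table of GRCm38.p6 at chr17:23823339-23823358 (+), with the seed, bases 2 to 8, in capitals.
mmu-miR-5125: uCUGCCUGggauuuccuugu
Srrm2, a splicing factor gene, had a log2 difference of 0.01 ± 0.05 (SE) and did not pass the test (edgeR quasi-likelihood, adjusted p = 0.960), so the count at Mir5125 differed without a detected difference of its host. Mir1258 had 0.897 to 1.83 CPM in WT (median 1.41) and 2.81 to 4.17 CPM in 3xTg-AD mice (median 3.31), and Aldh7a1, a dehydrogenase gene of lysine breakdown that spans it on the opposite strand, rose from 41.8 ± 2.23 to 95.2 ± 5.72 CPM (SD, n = 15, log2 difference 1.19 ± 0.03, SE, adjusted p = 1.21e-22). Snord32a, a guide of ribosomal RNA methylation, had 25.7 to 37.7 CPM in WT (median 28.5) and 18 to 25.7 CPM in 3xTg-AD mice (median 22.9), and its host Rpl13a fell by 0.25 on the log2 scale (adjusted p = 0.000176). Gm24682 and the long noncoding RNA AC157931.1 both overlap Diablo on its opposite strand. The product of Diablo releases caspases from inhibition, and the gene fell from 43.0 ± 3.04 to 29.8 ± 2.18 CPM (log2 difference -0.53 ± 0.03, adjusted p = 4.72e-13). Gm27325 held 192 reads in WT and 1 read in 3xTg-AD mice, and Eif3j2, a gene for a translation initiation factor whose exon it shares, fell from 2.05 ± 0.297 to 0.0463 ± 0.0665 CPM (adjusted p = 1.02e-15).

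Of the 5 TEC genes, Gm10654 (chromosome 8, 70931405 to 70933037) had the widest gap, 2.45 to 4.04 CPM in WT (median 3.29) and 0 to 0.0673 CPM in 3xTg-AD mice (median 0), with 1514 reads against 6. Map1s, a microtubule-associated protein gene 13876 bases away, did not pass the test (-0.13, edgeR quasi-likelihood, adjusted p = 0.331). Ighg2c, the constant region of an antibody heavy chain, had 0 to 0.266 CPM in WT (median 0.0314) and 0.770 to 5.49 CPM in 3xTg-AD mice (median 2.92), 29 reads against 1363. Of the 5 blood markers, the globin genes and Alas2, of which 4 rose, the sum ran from 102 to 428 CPM in WT and from 47.6 to 2522 CPM in 3xTg-AD mice. Their part in the Ighg2c result was not tested.

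On the autosomes and chromosome X, the share of noncoding genes that separated the genotypes ran from 0.412% on chromosome 1 (4 of 970) to 4.84% on chromosome 12. Chromosome 12 held 14 of them, of 289 noncoding genes with enough reads, 8 of them in the 2 groups of overlapping or matching genes described above, and chromosome 18 held 8 of 182 (4.40%), beside the 1.24% overall. In 12 places, 2 or more followed each other within 1 Mb, which took in 30 of the genes. Besides the loci on chromosomes 12 and 17, A930024E05Rik, AC157931.1 and Gm24682 lay together on chromosome 5 (122989354 to 123518367), all lower in 3xTg-AD mice and 3 of 11 noncoding genes there.

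Processed pseudogenes and the other genes of the set were also described by their distance to the next separating gene. Another gene that separated the genotypes and was no processed pseudogene lay within 1 Mb of 48 of the 67 other genes (71.6%), and of 9 of the 31 processed pseudogenes (29.0%). The same held for 18.1% of all noncoding genes with at least 100 reads, 19.4% of the protein-coding ones and 14.0% of all processed pseudogenes. Of the 16 parents, 8 (50%) had such a gene within 1 Mb. Tdg lay 6.6 kb from 1190007I07Rik, Atp6v0c 45.4 kb from Tedc2, Rpl3 81.9 kb from Mgat3, Rps2 165 kb from Spsb3 and Rnps1 194 kb from Tedc2. These distances are given as a description, since separation of the neighbours is the same measure that chose the genes.

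Age was not used to choose the genes and was tested separately. In WT mice none of the 98 was called with age (edgeR quasi-likelihood, adjusted p below 0.05), beside 0.0255% of all genes tested, with 11 (11.2%) at an unadjusted p below 0.05, as were 8.76% of all genes, and 0 called by DESeq2. In 3xTg-AD mice 2 were called, beside 0.626% of all genes, with 12 (12.2%) at an unadjusted p below 0.05, as were 14.4% of all genes. The rule can favour genes with little spread within a genotype, and whether this affected the age counts was not tested.

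The 2 genes called with age in 3xTg-AD mice were 3110053B16Rik and Pdcd5-ps. 3110053B16Rik stood at 2.30 ± 0.487, 1.59 ± 0.160, 1.89 ± 0.291, 2.25 ± 0.999 and 4.32 ± 1.88 CPM (SD, n = 3) from the youngest to the oldest age (2, 7, 8, 11, then 14 months) in 3xTg-AD mice (edgeR quasi-likelihood, adjusted p = 0.0244). In WT mice it stood between 17.5 CPM at 8 months and 20.6 CPM at 7 months. Replicate 1 of 14 months was the highest 3xTg-AD mouse at 6.47 CPM, while the lowest mouse of that age, at 3.05 CPM, lay below replicate 1 of 11 months at 3.39 CPM. Without replicate 1 of 14 months the call was lost (adjusted p = 0.155), as it was without replicate 5 or 7 of 7 months (adjusted p = 0.0589 and 0.0569).

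Pdcd5-ps stood at 2.17 ± 0.167 CPM at 2 months (SD, n = 3) and then between 1.26 CPM at 8 months and 1.37 CPM at 14 months in 3xTg-AD mice (edgeR quasi-likelihood, adjusted p = 0.0291). In WT mice it stood between 0.751 and 0.990 CPM over the ages. The 3 mice of 2 months were the highest of the 3xTg-AD group. Without replicate 3 or 4 of 2 months the call was lost (adjusted p = 0.140 and 0.0974), as it was without replicate 5 of 7 months (0.0590) or replicate 3 of 8 months (0.0533). As a slope over age, neither gene was called (adjusted p = 0.301 for 3110053B16Rik and 0.163 for Pdcd5-ps).

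**Figure D5:**
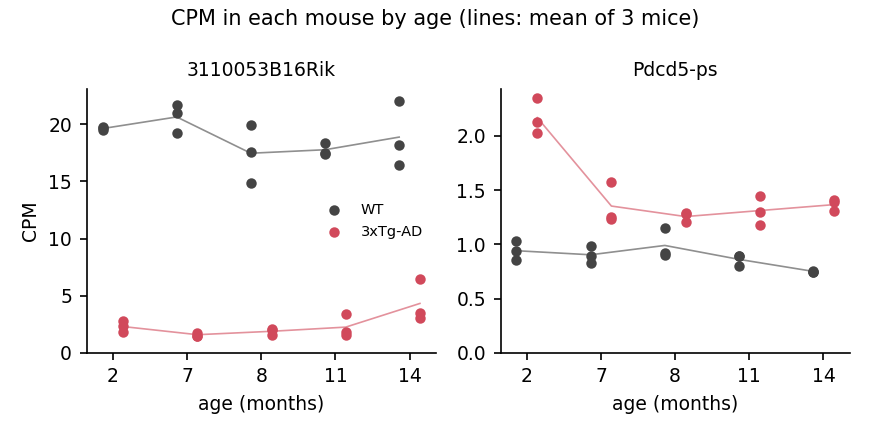
CPM of 3110053B16Rik and Pdcd5-ps in single mice (points) with the mean of the 3 mice of a group (lines), against age in months (evenly spaced), for WT and 3xTg-AD. 3110053B16Rik is highest at 14 months within 3xTg-AD (mean 4.32 CPM) and Pdcd5-ps at 2 months (mean 2.17 CPM), while the genotypes stay apart at every age.

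Whether the genotype difference itself varied with age was tested as an interaction. No gene of the set was called (edgeR quasi-likelihood, smallest adjusted p = 0.388 for 3110053B16Rik), beside 0.00319% of all genes, with 11 (11.2%) at an unadjusted p below 0.05, as were 7.36% of all genes. DESeq2 called 1, 3110053B16Rik (adjusted p = 0.0289). The age patterns of 3110053B16Rik and Pdcd5-ps in 3xTg-AD mice are thus not shown to differ from those in WT mice by the quasi-likelihood test.

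Amyloid beta 42 (Aβ42) and the preference index of conditioned taste aversion (CTA, a test of taste memory) were related to expression within each genotype. Of the 96 genes of the set tested, none was called with Aβ42 in 3xTg-AD or WT mice, nor with the CTA index in either, by edgeR's quasi-likelihood test or by DESeq2, beside 0% of all genes in each test. At an unadjusted p below 0.05 there were 6 genes for Aβ42 in 3xTg-AD mice (6.25%, beside 5.64% of all genes) and 5 in WT mice (5.21%, beside 5.1%). For CTA there were 4 in 3xTg-AD mice (4.17%, beside 1.92%) and 1 in WT mice (1.04%, beside 4.12%).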

How the data were processed

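The authors selected polyA RNA, trimmed reads with Trimmomatic, aligned them with TopHat2 (mm10 in the submitters' processing notes) and deposited raw counts of reads per Ensembl gene, without normalization, for 1 library per mouse. The counting tool, its strand setting and the annotation release are not given in the sources used here. Aβ42 (14 mice per genotype) and the CTA index came from the labels, as did the groups.

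Types, positions and transcripts came from GENCODE vM21 (GRCm38), which held 42548 of the 43629 identifiers. Counts were scaled by TMM in edgeR (4.0.16, R 4.3.3). Partner genes were the best coding match of a transcript (blastn 2.17.0+, at least 80% identity over 50% of it), overlapping coding genes, and, where none overlapped, the nearest coding gene within 100 kb. Genes holding at least 5 reads entered quasi-likelihood fits in edgeR. Genotype with age as a factor, and age with interaction, were fitted separately over the 30 mice. Aβ42 and the CTA index were fitted within each genotype over its mice with a value, without an age term in the main fits. The read filter of these fits was applied to the same mice. Adjustment was by Benjamini-Hochberg over all genes, with a call below 0.05. DESeq2 (1.42.0), other filters and scalings, thinning, edgeR's exact test per age and leaving out each mouse were alternatives. The tests were first checked on simulated counts. Counting intervals and folds from few reads cover counting error only, and p-values the spread between these mice. Depth was 19028829 to 41551040 reads per mouse.

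The set, the lists and the tests were chosen with earlier results of these data known. Genes named were, per direction, the 8 highest in level and the 4 with the widest gap, those with a name other than a Gm number or clone name, those at the thresholds, called with age or in runs of 3 or more within 1 Mb, and their partners. Further genes named for a family, a partner or a position were chosen after their values were seen. Some genes are not reported here.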

Additional observations from a re-analysis of the deposited data

How the results depend on the processing

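The 98 genes became 95 with size factors by RLE, 97 by library size alone, 84 at a minimum of 300 reads, 102 at 50 reads, 85 after thinning to the smallest library, and 97 to 104 without a single mouse. Where a finite ratio could be formed, the log2 differences of single genes moved by more than the spread between mice only after thinning. This held for Gm12576 (8.79), Gm6969 (-10.43) and Rplp0-ps1 (6.59), each with few reads in one genotype. Gm5815, with 1 read in WT mice, kept no WT read after thinning and had no finite ratio there. Of the coding partners, 50 were called, 48 to 52 under RLE, other filters, DESeq2, a striatal score as a covariate and a wider window of 500 kb, and 49 to 52 without a single mouse. It was 17 when a call at each of the 5 ages by the exact test was required, a rule that changes the test, the mice in each fit and the number of calls needed at once; the cause was not tested. It was 14 without genes that overlap or match one of the set, since fewer genes were then counted. For single partners, 3632 comparisons kept their side of the threshold, 19 lost and 13 gained a call, and none reversed. Genes of the set called with age in 3xTg-AD mice numbered 2, 0 as a slope, and 0 to 3 without a single mouse. The count was 0 without replicate 5 of 7 months, 1 without replicates 3 or 4 of 2 months, 7 of 7 months, 3 of 8 months or 1 of 14 months, and 3 without replicate 1 of 11 months, where E330013P04Rik was added. The interaction called 0 genes, and 1 with DESeq2; the cause was not tested. Counts for age in WT, Aβ42 and CTA stayed at 0 under every alternative run, but leaving out single mice was not run for Aβ42 and CTA. No paired analysis was possible because each mouse number marks a different mouse. Depth limits genes with few reads in the lower genotype, whose folds are known only within wide counting intervals.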
